A study of Saccharomyces cerevisiae with 4 samples.

Results

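The 10 genes described here carry glucose into the yeast cell and take it through the first steps of glycolysis. They are the hexose transporter genes HXT1 (YHR094C), HXT2 (YMR011W), HXT3 (YDR345C), HXT4 (YHR092C) and HXT5 (YHR096C), and the enzyme genes HXK2 (YGL253W), GLK1 (YCL040W), PGI1 (YBR196C), PFK1 (YGR240C) and PFK2 (YMR205C). They were selected by gene name under a rule that uses no measured value, though the set was drawn up with earlier results of these data known. They are 10 of the 5659 genes named in the array annotation. Their probes number 108 in every library, of 41409 to 41430 usable nuclear probes. Of these, 65 lie in open reading frames (ORFs), 42 in promoters and 1 downstream of a gene. PGI1 has no promoter probe and GLK1 has 1.

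The study mapped 2 proteins of the inner part of the yeast nuclear pore, Nup157 and Nup170, on the Saccharomyces cerevisiae genome by ChIP-chip, in which immunoprecipitated DNA is hybridised to a microarray of genomic probes. All 4 strains were haploid of mating type MATa and carried, by label, the alleles lys2∆0, ura3∆0, leu2∆0 and his3∆1. One carried NUP157-9xMYC::hphR, and 3 carried NUP170-9xMYC::hphR, either with no further change ("wild type") or with sir4∆::natR or yku70∆::natR. SIR4 encodes a protein of silent chromatin, YKU70 encodes part of the Ku heterodimer, and both proteins act at telomeres. Cells grew in YPD, a glucose-rich medium, at 30 °C to an OD600 of 1.0 and were fixed with 1% formaldehyde for 1 h. Sheared chromatin averaging 400 bp was precipitated with an anti-Myc monoclonal antibody. Cy5 marked the precipitated DNA, and Cy3 marked DNA from the whole cell extract of that strain. Each group has 1 library, hybridised 2 times, and no untagged strain was analysed here. The hybridisations are repeat measurements, so differences between libraries have no replicate check and no test was run.

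Glucose enters yeast through the Hxt proteins by facilitated diffusion. HXT1 and HXT3 encode low-affinity transporters used when glucose is plentiful, HXT2 and HXT4 encode transporters induced by low glucose, and HXT5 is expressed in slowly growing and stationary cells. Hexokinase 2 (HXK2) and glucokinase (GLK1) phosphorylate the incoming sugar, phosphoglucose isomerase (PGI1) converts glucose 6-phosphate to fructose 6-phosphate, and phosphofructokinase, an oligomer of the PFK1 and PFK2 products, commits it to glycolysis. In high glucose HXK2 is the predominant kinase and also takes part in glucose repression, while GLK1 is repressed by glucose.

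All values below are log2(ChIP / whole cell extract), centred so that the median probe of each hybridisation is 0. A gene's ORF or promoter value is the mean over its probes of that class. The whole cell extract signal bears on 2 labels. The 15 probes of SIR4 were still above blank spots in the library labelled sir4∆, at -0.41 on the log2 scale against the other libraries, and the 7 probes of YKU70 were at -0.046 in the library labelled yku70∆. All 16 LYS2 probes were above blank in the Nup170 libraries and none in the Nup157 library, although all strains are labelled lys2∆0. The libraries are therefore called by their labels. None of the 108 probes was near the blank level. The Nup157 library was the noisiest: over the 108 probes its hybridisations correlated at r = 0.62, against 0.83 to 0.86 in the Nup170 libraries, and its lower-side SD over all probes was 0.50 against 0.18 to 0.22.

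The ORFs of the enzyme genes and of the high-glucose transporters carried more ChIP signal than the typical ORF, with both proteins except at GLK1, where this held for Nup157 and little for Nup170. HXT4 and HXT5 were the lowest 2 in Nup170 wild type, at most 0.04. HXT2, a low-glucose transporter, had 0.18 there, above 86.6% of all genes and above GLK1 at 0.14. In the libraries labelled sir4∆ and yku70∆ HXT2 was above 92.1% and 88.4% of all genes. With Nup157 HXT2 had -0.040. The median ORF value of the 10 genes was 0.41 with Nup157, 0.33 with Nup170 in wild type, 0.29 in the library labelled sir4∆ and 0.31 in the library labelled yku70∆. The corresponding medians over 5014 to 5016 genes were 0.022, 0.0044, -0.0014 and 0.0071. ORF values were above 0 in 8 of 10 genes with Nup157, where 52.7% of all genes were above 0, and in 9 of 10 with Nup170 in wild type, where 51.4% were. They were above 0 in 10 of 10 in the library labelled sir4∆ (49.5% of all genes) and in 9 of 10 in the library labelled yku70∆ (52.7%). Removing the dependence of the ratio on spot intensity lowered the Nup157 median to 0.15, and normexp background correction raised all 4 medians, to 0.58 or more.

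**Figure D1:**
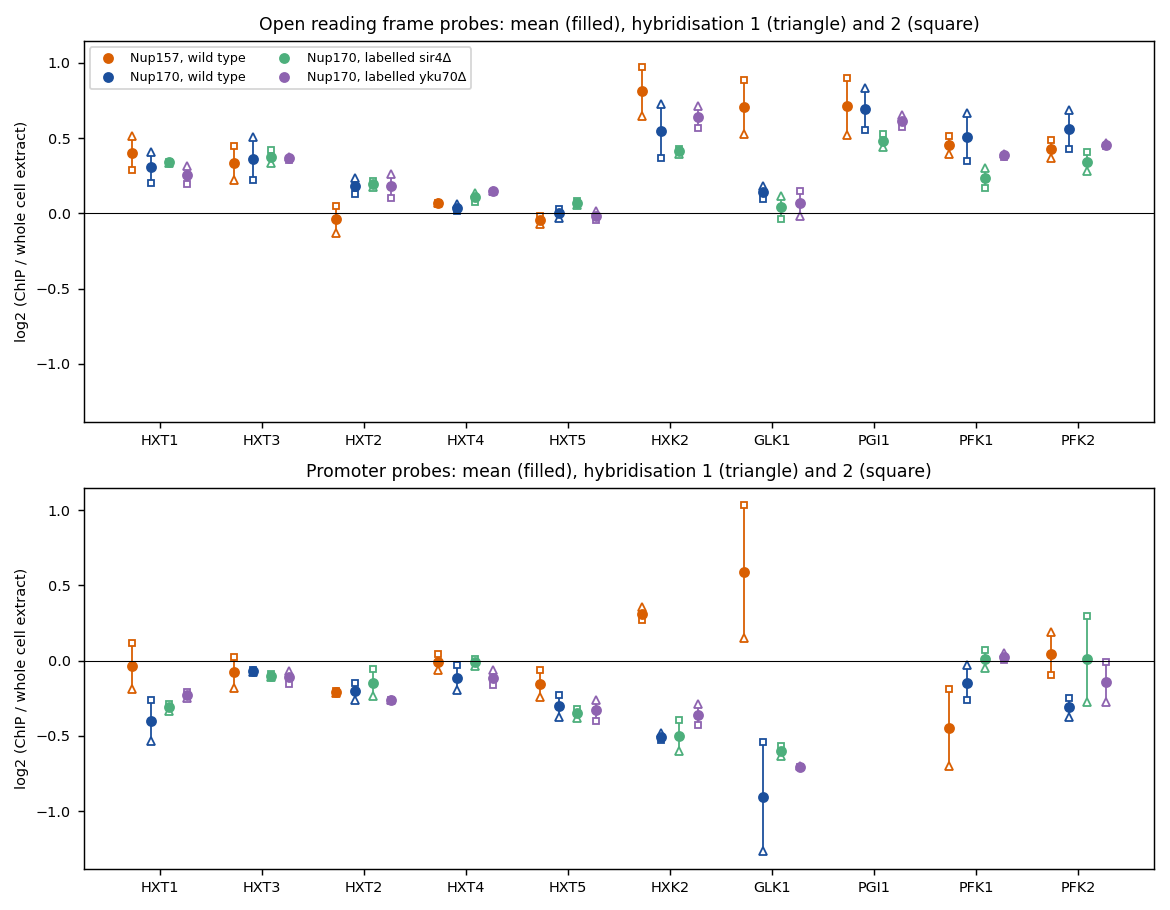
ORF values (top) and promoter values (bottom) of the 10 genes in the 4 libraries, as log2(ChIP / whole cell extract); filled points are library means, and open triangles and squares are the first and second hybridisations, joined by a line. Enzyme ORFs reach 0.81 (HXK2, Nup157) while HXT4 and HXT5 do not exceed 0.15, and the HXK2 and GLK1 promoters separate Nup157 from the Nup170 libraries.

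Among the transporters, HXT1 and HXT3 had raised ORF signal in every library and hybridisation. In the first and second hybridisations, HXT1 (7 ORF probes) gave 0.51 and 0.29 with Nup157, 0.41 and 0.20 with Nup170 in wild type, 0.34 and 0.34 under the label sir4∆, and 0.31 and 0.20 under yku70∆. HXT3 (6 ORF probes) gave 0.22 and 0.45 with Nup157, 0.51 and 0.22 with Nup170 in wild type, 0.33 and 0.42 under sir4∆, and 0.38 and 0.36 under yku70∆. For HXT3 the libraries overlapped. For HXT1 they did as well, except that both values under sir4∆ lay above both under yku70∆. Neither gene reached a 1.5-fold ratio (0.58 on the log2 scale) in any library mean. In Nup170 wild type HXT3 stood at rank 248 and HXT1 at rank 296 of 5014 ORFs.

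HXT2, one of the low-glucose transporters, was the only one of the 5 whose ORF values in both Nup157 hybridisations lay below all 6 Nup170 values. Its 5 ORF probes averaged -0.13 and 0.05 in the Nup157 hybridisations, against 0.24 and 0.13 with Nup170 in wild type, 0.18 and 0.21 under sir4∆, and 0.26 and 0.10 under yku70∆. The difference, Nup157 minus Nup170 in wild type, was -0.22, with -0.36 to -0.079 over the 4 pairings of hybridisations, and 23.9% of all genes had a lower difference. A difference below 0 in all 4 pairings was found in 30.5% of all genes. The share of all genes below all 6 Nup170 values was not counted.

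HXT4 and HXT5 showed little ORF signal, at most 0.15 in any library mean. The 5 ORF probes of HXT4 averaged 0.07 with Nup157, 0.04 with Nup170 in wild type, 0.11 under sir4∆ and 0.15 under yku70∆. The 8 ORF probes of HXT5 averaged -0.044, -0.00033, 0.07 and -0.017 in the same order. HXT4 was above 60.5% of all genes in Nup170 wild type and above 84.5% under yku70∆, and HXT5 was above 48.5% and 40.6%. HXT5 probes ran from -0.89 to 0.49 with Nup157, a spread (SD 0.49) wider than in Nup170 wild type (SD 0.16). The lower-side SDs over all probes of these libraries differed likewise, at 0.50 and 0.22.

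HXT4, HXT1 and HXT5 are neighbours on chromosome 8, where their ORF probes lie between 287527 and 296478 in the coordinates of the files. HXT1, between the other two, was the highest of the 3 in all 4 libraries. In Nup170 wild type the values from HXT4 through HXT1 to HXT5 were 0.04, 0.31 and -0.00033. The HXT genes are related in sequence, and cross-hybridisation between their probes was not tested.

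HXK2 and GLK1 catalyse the same reaction. The HXK2 ORF carried raised signal with both proteins, and the GLK1 ORF with Nup157 but little with Nup170. HXK2 (6 ORF probes, chromosome 7, 24026 to 25308) gave 0.65 and 0.97 with Nup157, 0.73 and 0.37 with Nup170 in wild type, 0.40 and 0.43 under sir4∆, and 0.71 and 0.57 under yku70∆. GLK1 (5 ORF probes, chromosome 3, 50934 to 52028) gave 0.53 and 0.89 with Nup157, 0.18 and 0.10 with Nup170 in wild type, 0.12 and -0.036 under sir4∆, and -0.015 and 0.15 under yku70∆. The HXK2 hybridisations overlapped between the proteins, and those of GLK1 did not: both Nup157 values exceeded all 6 Nup170 values. The share of all ORFs without such overlap was not counted.

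The GLK1 difference, Nup157 minus Nup170 in wild type, was 0.57, with 0.35 to 0.79 over the 4 pairings, and all 5 ORF probes were higher with Nup157. It fell just short of 1.5-fold, and 94.4% of all genes had a lower difference. For HXK2 the ORF difference was 0.26, with pairings from -0.081 to 0.61. With Nup157, HXK2 stood at rank 119 and GLK1 at rank 215 of 5015 ORFs, whereas in Nup170 wild type HXK2 was at 142 and GLK1 at 895 of 5014. The GLK1 difference stayed above 0 in all 9 alternative settings of the processing, between 0.20 and 0.81. These include the removal of dim probes, which could not change it, as none of its probes was near the blank level.

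PGI1 was raised in every library and hybridisation. Its 6 ORF probes (chromosome 2, 612185 to 613760) averaged 0.52 and 0.90 with Nup157, 0.83 and 0.56 with Nup170 in wild type, 0.44 and 0.53 under sir4∆, and 0.66 and 0.58 under yku70∆. All 6 probes were above 0 in each library mean, and PGI1 ranked 74 of 5014 in Nup170 wild type. The difference between the proteins was 0.015, with pairings from -0.31 to 0.34.

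The subunit genes of phosphofructokinase lie on different chromosomes and had similar values. PFK1 (9 ORF probes, chromosome 7, 971063 to 973602) gave 0.39 and 0.51 with Nup157, 0.67 and 0.35 with Nup170 in wild type, 0.30 and 0.17 under sir4∆, and 0.40 and 0.38 under yku70∆. PFK2 (8 ORF probes, chromosome 13, 671984 to 674721) gave 0.37 and 0.49, 0.69 and 0.43, 0.28 and 0.41, and 0.46 and 0.45 in the same order. The hybridisation ranges of PFK1 and PFK2 overlapped in each library but the one labelled yku70∆, where PFK2 was higher in both hybridisations. Single PFK2 probes ran from -0.18 to 1.21 (SD 0.51) with Nup157, and from 0.20 to 0.80 (SD 0.19) with Nup170 in wild type. The lower-side SDs over all probes of these libraries were likewise 0.50 and 0.22, so the wider spread is not particular to PFK2.

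Ordered by ORF value in Nup170 wild type, the genes ran PGI1, PFK2, HXK2, PFK1, HXT3, HXT1, HXT2, GLK1, HXT4 and HXT5. Hybridisation ranges of neighbours in that order overlapped for 8 of 9 pairs, and GLK1 over HXT4 was the exception. With Nup157 the order was HXK2, PGI1, GLK1, PFK1, PFK2, HXT1, HXT3, HXT4, HXT2 and HXT5, and 6 of 9 neighbouring pairs overlapped. The steps without overlap were GLK1 over PFK1, HXT3 over HXT4 and HXT4 over HXT2.

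A gene was counted as past 1.5-fold when its mean exceeded that ratio and both hybridisations lay on the same side of 0. With Nup157, 3 of 10 ORFs passed, those of HXK2 (a ratio of 1.75), PGI1 (1.64) and GLK1 (1.63), where 7.94% of all genes passed. With Nup170 in wild type PGI1 passed (1.62), 1 of 10 where 2.41% of all genes did. Under yku70∆, HXK2 (1.56) and PGI1 (1.53) passed, 2 of 10 against 1.91%, and under sir4∆ 0 of 10 passed, against 1.04%. None was past 1.5-fold below 0, where the shares of all genes were 2.77% with Nup157, 0.0798% with Nup170 in wild type, 0.0199% under sir4∆ and 0.0% under yku70∆. After removal of the intensity trend 0 of 10 passed with Nup157 (1.6% of all genes), with Nup170 in wild type (1.72%), under sir4∆ (0.638%) and under yku70∆ (1.02%). With normexp correction 6 of 10 passed with Nup157 (21.7%), 5 with Nup170 in wild type (6.7%), 6 under sir4∆ (6.46%) and 5 under yku70∆ (6.76%).

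The authors' deposited table also marks each probe as lying in a bound region or not, by a rule that the sources used here do not give. It marks 15 of the 65 ORF probes of the 10 genes with Nup157, where it marks 5.73% of all ORF probes. With Nup170 it marks 31 in wild type (4.28% of all), 29 under sir4∆ (3.95%) and 31 under yku70∆ (4.36%). The authors' deposited table marks all 5 ORF probes of GLK1 with Nup157 and 0 in any Nup170 library. It marks 1 of 9 PFK1 probes with Nup157 and 9 of 9 with Nup170 in wild type, while the mean ORF value of PFK1 differed by -0.052 between these libraries. HXT2, HXT4 and HXT5 have 0 marked ORF probes in all 4 libraries. In the authors' deposited table, 2 promoter marks fall on the 42 promoter probes over all 4 libraries: 1 of 42 with Nup157 at GLK1 (3.73% of all promoter probes), 0 with Nup170 in wild type (6.83%), 1 under sir4∆ at HXT4 (5.03%) and 0 under yku70∆ (6.55%).

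In all 9 genes with promoter probes, the ORF value was above the promoter value in each of the 4 library means. Across all genes with both values this held for 62.4% with Nup157, 75.4% with Nup170 in wild type, 67.3% under sir4∆ and 74.7% under yku70∆. The median gap between ORF and promoter was 0.38, 0.65, 0.42 and 0.48 in that order, against 0.14, 0.17, 0.093 and 0.13 over 4198 to 4200 genes. By single hybridisation the order turned for GLK1 in the second Nup157 hybridisation, at -0.15. The promoter values of HXT1 to HXT4 take in probes far upstream. Within 500 bp of the start, a limit chosen after the data were seen, some promoters exceeded their ORF. With Nup157 these were HXT2 (0.45 against -0.040), HXT3 (0.57 against 0.33) and HXT4 (0.30 against 0.07). HXT4 did so also with Nup170 in wild type (0.15 against 0.04) and under sir4∆ (0.15 against 0.11). Removing the intensity trend lowered the Nup157 gap to 0.11.

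The widest gaps in Nup170 wild type were those of HXK2, at 1.05, and GLK1, at 1.04, each above that of 99.3% of all genes. The GLK1 gap rests on 1 promoter probe. PFK2 followed at 0.87, HXT1 at 0.71 and PFK1 at 0.65. In HXK2 the gap was also wide under sir4∆, at 0.91, and under yku70∆, at 1.00. With Nup157 it was 0.50, and the widest gap there was that of PFK1, at 0.90.

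**Figure D2:**
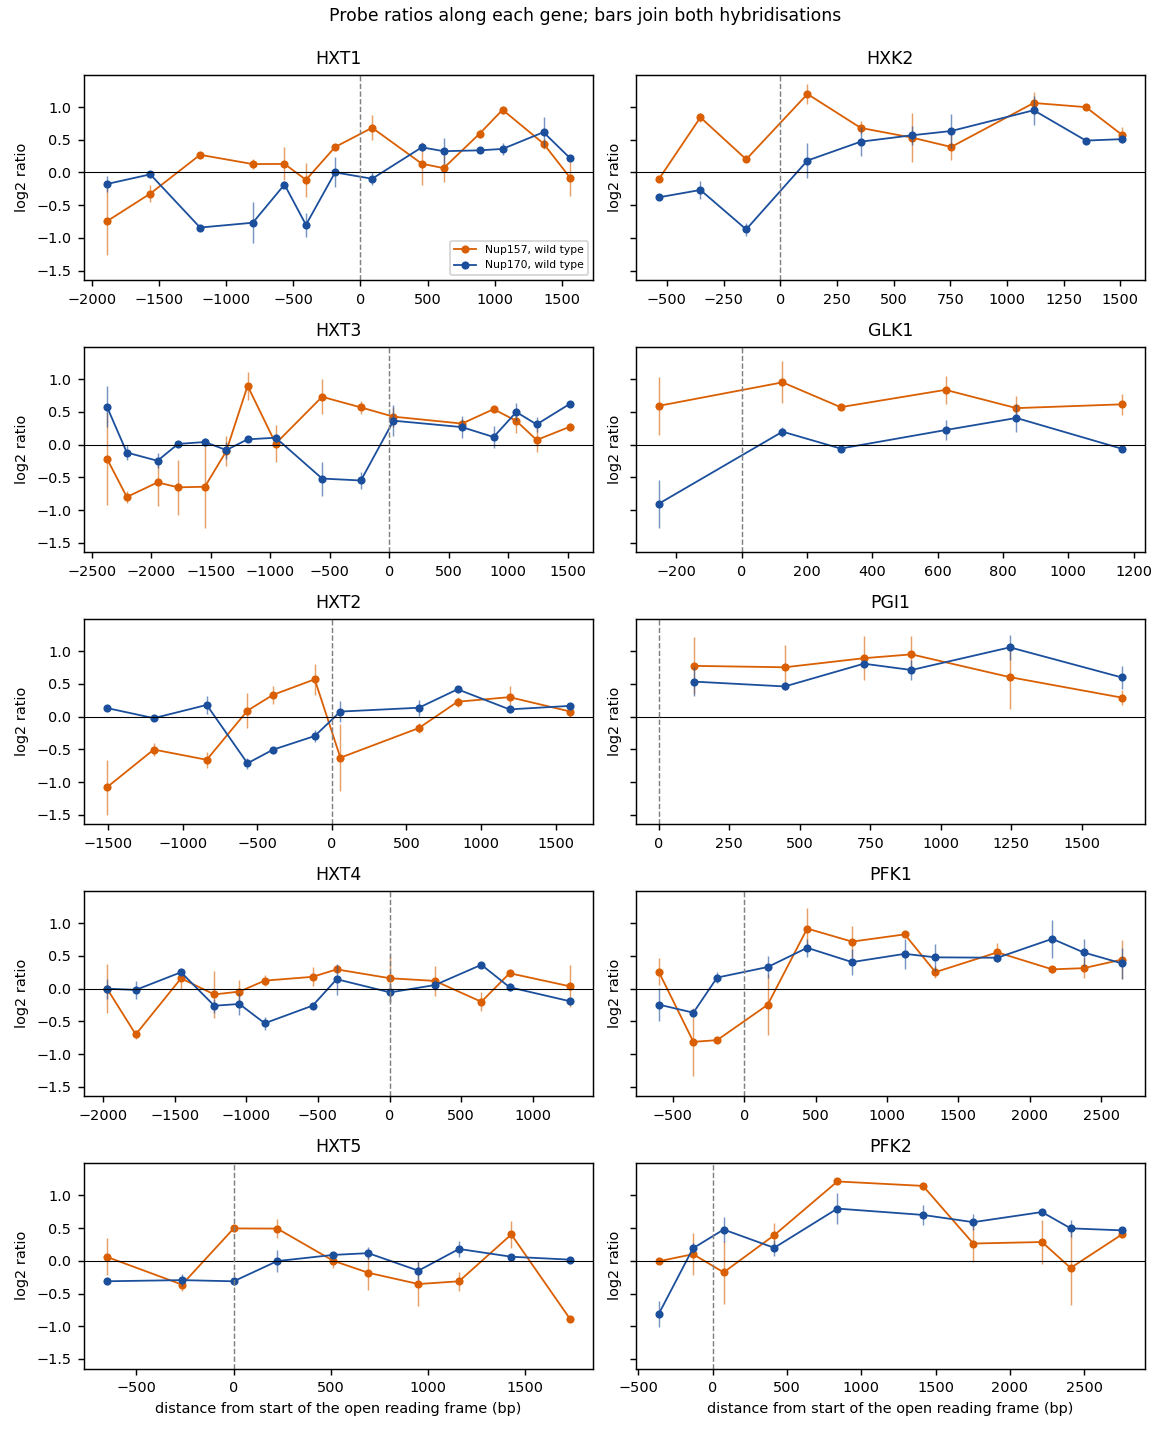
Probe values along each gene, as log2(ChIP / whole cell extract), against distance in bp from the start of the ORF (dashed line); points are means of both hybridisations for Nup157 (orange) and Nup170 in wild type (blue), and vertical bars join the hybridisations. Just upstream of HXT2, HXT3, HXK2 and GLK1 the Nup157 points lie above 0 and the Nup170 points below 0, while at PFK1 the order is the opposite.

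The largest differences between the proteins at these genes lay in promoters. HXK2 has 3 promoter probes, at -536, -352 and -150 bp from the start of the ORF. Their Nup157 values were -0.11, 0.84 and 0.20, and their values with Nup170 in wild type were -0.38, -0.27 and -0.87. All 3 were thus higher with Nup157. The promoter means of HXK2 were 0.35 and 0.27 in the Nup157 hybridisations, -0.48 and -0.53 with Nup170 in wild type, -0.60 and -0.40 under sir4∆, and -0.29 and -0.43 under yku70∆.

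The HXK2 promoter difference, Nup157 minus Nup170 in wild type, was 0.82, with 0.75 to 0.88 over the 4 pairings. HXK2 was 1 of 8 genes with at least 2 promoter probes to exceed 1.5-fold, where 8.35% of all genes did, and 0 of 8 passed in the other direction, where 6.32% did. In the ORFs 0 of 10 passed in either direction, against 4.97% above and 2.47% below. The HXK2 difference stayed between 0.69 and 1.07 in all 9 alternative settings, which include the removal of dim probes that could not change it.

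The single promoter probe of GLK1, at -254 bp, gave 0.15 and 1.03 with Nup157 and -1.27 and -0.54 with Nup170 in wild type. It gave -0.63 and -0.56 under sir4∆ and -0.70 and -0.71 under yku70∆. Both Nup157 values were above all 6 Nup170 values, which was not counted over all promoters. The difference from Nup170 in wild type was 1.496, with the wide range of 0.69 to 2.30 over the pairings, and rests on 1 probe.

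Like HXK2 and GLK1, HXT1 had higher promoter values in both Nup157 hybridisations (-0.19 and 0.12) than in all 6 Nup170 hybridisations (-0.53 to -0.21). How many of all promoters were separated in this way was not counted. The promoter probes of HXT1 to HXT4 reach farther upstream than those of the other genes, and their values changed with distance from the gene. Over all their promoter probes HXT2 averaged -0.21 with Nup157 and -0.20 with Nup170 in wild type, and HXT3 averaged -0.078 and -0.071. Within 500 bp of the start, a limit chosen after the data were seen, HXT2 (2 probes) averaged 0.45 with Nup157 and -0.40 with Nup170 in wild type. HXT3 (1 probe) stood at 0.57 and -0.55, and HXT1 (2 probes) at 0.14 and -0.40. HXT4 was closer, at 0.30 and 0.15, and HXT5 was below 0 with both, at -0.36 and -0.30.

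Within 500 bp, PFK1 ran against the other enzymes with promoter probes. Its 2 near promoter probes averaged -1.08 and -0.51 in the Nup157 hybridisations, against -0.051 and -0.15 with Nup170 in wild type. Its remaining promoter probe, at -599 bp, went the other way, at 0.26 with Nup157 and -0.24 with Nup170 in wild type. Over all 3 probes the PFK1 promoter difference was -0.30, with pairings from -0.67 to 0.076. The PFK2 promoter (2 probes) averaged 0.05 with Nup157 and -0.31 with Nup170 in wild type. Over the 9 genes, 7 were above 0 with Nup157 within 500 bp, where 44.5% of all genes were, and 1 was with Nup170 in wild type, where 24.4% were. The medians were 0.30 and -0.40, against -0.070 and -0.15 over all genes.

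Probe by probe, the difference between the proteins changed sign with distance. Within 500 bp upstream, 10 of 14 probes from 9 genes were higher with Nup157 (53.2% of all probes at that distance), and the median difference was 0.75 against 0.042 for all. Between 500 and 1000 bp upstream 9 of 11 probes were higher with Nup157 (44.3%), with a median of 0.44. Beyond 1000 bp, where only HXT1 to HXT4 have probes, 5 of 17 were higher with Nup157 (27.4%), and the median of -0.33 was close to the -0.30 of all probes there. Inside the ORFs the median difference was 0.23 in the first 500 bp and -0.15 beyond 1000 bp, against 0.077 and -0.098 over all probes. Neighbouring probes share sheared fragments and are not independent points.

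With Nup170 in wild type the promoter values were below 0 in all 9 genes, where 32.2% of all genes were above 0. The median was -0.30 against -0.098 over all genes. With Nup157 3 of 9 were above 0 (44.9% of all), with a median of -0.037. The 9 genes include GLK1, with 1 probe, while the shares and medians of all genes here rest on genes with at least 2. Of the 8 genes with at least 2 promoter probes, 0 were past 1.5-fold on either side of 0 in any library. The shares of all genes above and below were 4.59% and 9.14% with Nup157, 3.14% and 0.839% with Nup170 in wild type, 1.46% and 0.177% under sir4∆, and 2.12% and 0.265% under yku70∆. Under sir4∆ 2 of 9 were above 0 (37.8%) and under yku70∆ 1 of 9 was (32.5%), with medians of -0.15 and -0.23.

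**Figure D3:**
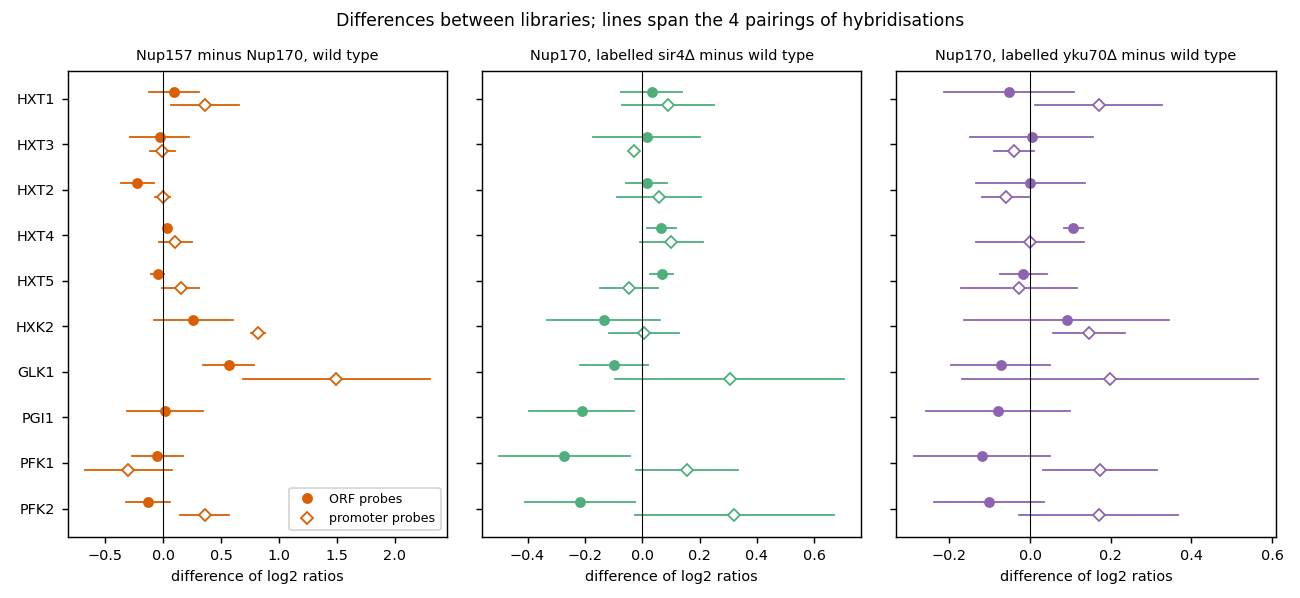
Differences of log2 ratios between libraries for ORF probes (filled circles) and promoter probes (open diamonds) of each gene; lines span the 4 pairings of hybridisations, and the horizontal scale differs between panels. HXK2 and GLK1 promoters stand at 0.82 and 1.496 for Nup157 minus Nup170, and PGI1, PFK1 and PFK2 ORFs lie below 0 over all pairings for the library labelled sir4∆ minus wild type.

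Between Nup170 in the library labelled sir4∆ and in wild type the differences at these genes were small. The ORF values of all 5 enzyme genes were lower than in wild type (55.8% of all genes were), and those of all 5 transporter genes were slightly higher (44.2% of all genes were). PFK1 differed by -0.27, with pairings from -0.50 to -0.044, and 0 of its 9 probes was higher. PFK2 differed by -0.22, with pairings from -0.41 to -0.024, and PGI1 by -0.21, with pairings from -0.39 to -0.029. These 3 genes were below wild type in all 4 pairings, as were 20.2% of all genes. At most 3.27% of all genes had lower differences than these 3. The lower glycolysis genes, whose ORF values are higher still, had a median difference of -0.27, with 8 of 10 below 0 and FBA1, the aldolase gene, lowest at -0.40.

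HXK2 and GLK1 had ORF differences of -0.13 and -0.099, with pairings on both sides of 0. The transporter differences lay between 0.015 and 0.07. Those of HXT4 (0.07) and HXT5 (0.07) were above 0 in all 4 pairings, and the share of all genes that were so was not counted. None of the 10 ORFs and none of the 8 promoters exceeded 1.5-fold in either direction. Among all genes, 0.0% of ORFs exceeded it above and 0.0199% below, and 0.0884% of promoters above and 0.442% below. Of these 8 promoters that of PFK2 had the highest difference, at 0.32, but its pairings ran from -0.027 to 0.67.

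In the library labelled yku70∆ the ORF differences from wild type were between -0.12 and 0.11. HXT4, at 0.11 with pairings from 0.083 to 0.13, was the single ORF on the same side of 0 in all 4 pairings. HXK2 was at 0.091 and PFK1 at -0.12, both with pairings on either side of 0. In the promoters HXT1 was higher by 0.17 (0.013 to 0.33), HXK2 by 0.15 (0.057 to 0.24) and PFK1 by 0.17 (0.033 to 0.31), each in all 4 pairings. The share of all genes above 0 in all 4 pairings was not counted. Below 0 in all 4 pairings were 14.2% of all ORFs and 11.8% of all promoters. None of the 10 ORFs or 8 promoters exceeded 1.5-fold in either direction, where 0.0% of all ORFs and 0.0% of all promoters did. All 3 comparisons use the same Nup170 wild-type library, and its hybridisations differed: the median ORF value of the 10 genes was 0.46 in the first and 0.21 in the second.

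The genes whose ORF values were most like those of PGI1 over the 8 hybridisations were RPS6B, MDH2, RPL27B, ACT1 and EFM3, at Euclidean distances of 0.19 to 0.27 among 4328 genes with at least 3 ORF probes. RPS6B, which encodes a ribosomal protein, had 0.76 with Nup157 and 0.66 with Nup170 in wild type. For HXK2 they were ACT1, the actin gene, at a distance of 0.19, then SAH1, SSC1, RPS6B and EFM3, at up to 0.33. ACT1 had 0.85 with Nup157 and 0.59 with Nup170 in wild type.

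Downstream in the pathway the ORF signal was higher. Of 11 lower glycolysis genes 10 were measured, with a median of 1.33 with Nup157 and 1.16 with Nup170 in wild type, above the 0.41 and 0.33 of the upper pathway. They exceeded 1.5-fold in 9 of 10 with Nup157 (7.94% of all genes) and in 8 of 10 with Nup170 in wild type (2.41%). Past 1.5-fold below 0 were 0, against 2.77% and 0.0798% of all genes. TDH3, a glyceraldehyde-3-phosphate dehydrogenase gene, was the highest at 1.72 and 1.70, and PYK2, a pyruvate kinase gene repressed by glucose, the lowest at 0.45 and -0.15. PYK2 was also 1 of 10 to exceed 1.5-fold in the difference between the proteins, at 0.59, where 4.97% of all genes did.

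The other hexose transporters and sensors, with 7 of 14 measured in their ORFs, had medians of 0.11 with Nup157 and -0.061 with Nup170 in wild type. Of these 0 exceeded 1.5-fold in either direction. Of all genes 7.94% with Nup157 and 2.41% with Nup170 passed above 0, and 2.77% and 0.0798% below. HXT9 was highest with Nup157, at 0.49, and HXT14 lowest, at -0.35. With Nup170 the highest was the glucose sensor gene RGT2, at 0.096, and the lowest HXT9, at -0.11. The HXT9 difference between the proteins, on 2 probes, was 0.60, 1 of 7 past 1.5-fold (4.97% of all genes). The other enzymes of glucose phosphorylation and fructose 6-phosphate, all 8 measured, had medians of 0.25 and -0.072. Past 1.5-fold were 0, where 7.94% and 2.41% of all genes passed above 0. FBP26 was lowest with both proteins, at -0.45 and -0.31, and PFK27 was highest with Nup170, at 0.13. FBP1, which encodes the gluconeogenic fructose-1,6-bisphosphatase, was highest with Nup157, at 0.48, and its ORF was 1 of 8 to exceed 1.5-fold in the difference between the proteins, at 0.64 (4.97% of all genes).

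Of the 10 pentose phosphate genes, 5 exceeded 1.5-fold with Nup157 (7.94% of all genes) and 0 with Nup170 in wild type (2.41%), with medians of 0.50 and 0.066. The 5, of which all but ZWF1 are named after their values were seen, were ZWF1, SOL3, TKL1, GND1 and TKL2. In the difference between the proteins 3 of 10 exceeded 1.5-fold (4.97%), TKL2 at 0.66, ZWF1 at 0.65 and SOL3 at 0.63. ZWF1, the glucose-6-phosphate dehydrogenase gene, was highest with Nup157 at 0.77 and RKI1 lowest at -0.17. With Nup170 in wild type TKL1, a transketolase gene, was highest at 0.52 and SOL4 lowest at -0.25. Of the 11 glucose signalling genes other than HXK2, 2 exceeded 1.5-fold with Nup157 (7.94%) and 0 with Nup170 in wild type (2.41%), with medians of -0.00016 and 0.12. YCK1, a casein kinase gene of the glucose sensing pathway, was highest with both, at 0.71 and 0.44. The other past 1.5-fold with Nup157 was MIG2, at 0.66, a repressor gene also named after its value was seen. SNF4 was lowest with Nup157, at -0.21, and RGT1 with Nup170, at -0.11. The 4 trehalose synthesis genes had medians of 0.16 and 0.037. Past 1.5-fold were 0, where 7.94% and 2.41% of all genes passed above 0. TPS1 was highest with both proteins, at 0.53 and 0.086. TPS3 was lowest with Nup157, at 0.039, and TSL1 with Nup170, at -0.047.

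**Figure D4:**
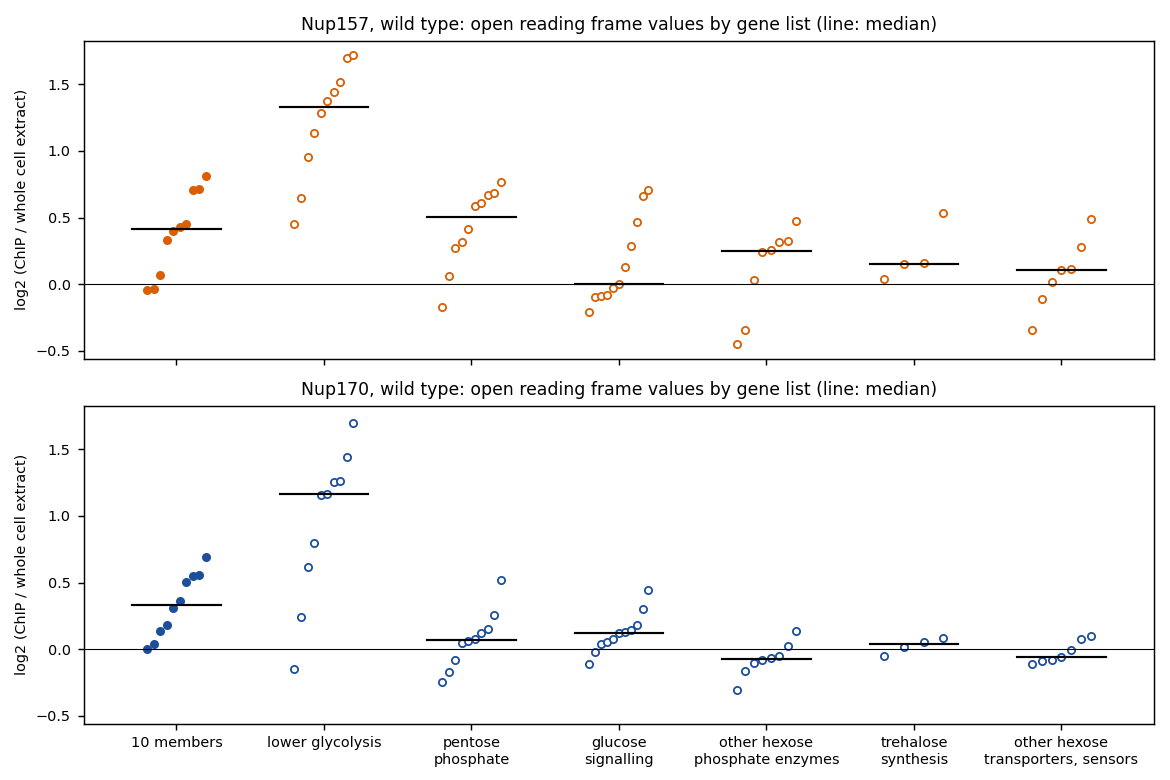
ORF values, as log2(ChIP / whole cell extract), of the 10 genes (filled) and of 6 lists of related genes (open), with Nup157 (top) and with Nup170 in wild type (bottom); each point is 1 gene and bars are medians. Lower glycolysis genes have the highest medians, 1.33 and 1.16, and pentose phosphate genes have 0.50 with Nup157 and 0.066 with Nup170.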

How the data were processed

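The deposited intensity columns hold spot foreground and background of both channels and normalised signals, with Agilent Feature Extraction named in the submitters' processing notes and no version given. The deposited log2 columns hold the authors' log2 ratios per hybridisation and combined, and the series value table repeats the combined ratio. The deposited marks of 0 or 1, a unit of another kind (other), give spots to leave out and bound probes. No source used here names the genome build, and positions are those of the files. From the authors' normalised signals, log2(ChIP / whole cell extract) was centred on the median of nuclear probes in each hybridisation, after mitochondrial probes and excluded spots were left out (41480 nuclear probes of 41775). Both hybridisations were averaged, then the probes of a gene. Comparisons with all genes took genes with at least 2 probes of the class. As exceptions, 1 promoter probe was enough for the gap between ORF and promoter and for promoters within 500 bp. Whole cell extract signal was set against 660 blank spots. Calls used 1.5-fold.

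All 10 members were named. Of other genes, the 5 nearest to the highest member for each protein, by Euclidean distance, and the highest and lowest of each list were named, with exceptions marked. The members, lists and rules were chosen with earlier results of these data known. Symbols came from a RefSeq table, which matched all 10. With 1 library in each group no test was run; spreads are those of 2 hybridisations or their 4 pairings, so array number limits the precision. Alternatives were single hybridisations, other background corrections (limma 3.58.1 in R 4.3.3, offset 50), removal of the intensity trend (statsmodels 0.14.6, span 0.3), medians, scaling and 1.3-fold or 2-fold calls. The calculations used Python 3.11.15 and pandas 2.3.3. ORF gene values and 1.5-fold calls were checked on simulated data with the noise of the Nup170 wild-type library, independent between probes. Promoter values, gaps and differences between libraries were not checked in this way.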

Additional observations from a re-analysis of the deposited data

Results flagged for a closer look

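In 3 promoters both hybridisations of one library lay above 0 and both of the other below it, and none of these differences was tested. The share of all promoters with the same pattern was not counted. The HXK2 promoter differed by 0.82 between Nup157 (0.35 and 0.27) and Nup170 in wild type (-0.48 and -0.53). The single GLK1 promoter probe differed by 1.496 between Nup157 (0.15 and 1.03) and Nup170 in wild type (-1.27 and -0.54). The PFK1 promoter differed by 0.17 between Nup170 in the library labelled yku70∆ (0.05 and 0.0037) and in wild type (-0.029 and -0.26), values close to 0 on both sides.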

How the results depend on the processing

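No value reversed its sign among called results, but the signs of some other values did change. The Nup157 promoter median, -0.037 in the main setting, kept its sign in 6 of 10 settings (-0.18 to 0.30). The ORF difference between the proteins kept its sign in 6 of 9 settings for HXK2 and in 4 of 9 for PGI1. The authors' combined ratio moved none of the medians and counts below by more than the spread between hybridisations. Removal of dim probes could not move them, as none of the 108 probes was near the blank level. The cause of each shift was not tested. In the order Nup157, Nup170 wild type, sir4∆ and yku70∆, normexp correction gave median ORF values of 0.72, 0.58, 0.62 and 0.61, and gaps between ORF and promoter of 0.66, 0.93, 0.85 and 0.82. Removal of the intensity trend gave ORF medians of 0.15 (Nup157), 0.24 (sir4∆) and 0.26 (yku70∆) and a Nup157 gap of 0.11. Scaling each library by its lower-side SD gave ORF medians of 0.23, 0.41 and 0.47 in these 3 libraries, and gaps of 0.21, 0.60 and 0.72. Foreground minus local background gave 0.27 for the sir4∆ ORF median and 0.38 for its gap. Medians over probes gave a Nup157 gap of 0.29. The Nup157 gap was 0.29 in the first and 0.25 in the second hybridisation, and that of Nup170 wild type 0.47 in the second. The yku70∆ promoter median became -0.33 with normexp, -0.15 with medians over probes and -0.34 after scaling. Restricting promoters to 500 bp, chosen after the data were seen, gave promoter medians of 0.30 (Nup157), -0.40 (Nup170 wild type) and -0.14 (yku70∆). Over all promoter probes these medians were -0.037, -0.30 and -0.23. The median ORF difference, Nup157 minus Nup170, was -0.0076 and turned with the hybridisation, at -0.18 in the first and 0.13 in the second; it was -0.15 without the intensity trend and -0.24 after scaling. ORFs past the threshold numbered 3, 1, 0 and 2, where 7.94%, 2.41%, 1.04% and 1.91% of all genes passed. They numbered 6, 5, 6 and 5 with normexp (21.7%, 6.7%, 6.46% and 6.76% of all genes) and 6, 4, 2 and 4 at 1.3-fold (18.7%, 4.65%, 2.97% and 4.23%). At 2-fold they numbered 0 in every library (0.917%, 0.519%, 0.219% and 0.459%), as also without the intensity trend (1.6%, 1.72%, 0.638% and 1.02%). In the first hybridisation they numbered 1 with Nup157 (7.12%) and 4 with Nup170 wild type (3.93%), in the second 0 with Nup170 wild type (1.24%) and 0 under yku70∆ (1.69%), and with foreground minus background 0 under yku70∆ (1.32%). No paired analysis was possible because each group has 1 library and the labels number no replicates.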

Other observations

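The 1 probe downstream of HXK2, 1507 bp from the start of the ORF, had values of 0.58 with Nup157, 0.51 with Nup170 in wild type, 0.43 in the library labelled sir4∆ and 0.59 in the library labelled yku70∆. In the authors' deposited table it is marked as bound in the yku70∆ library and in none of the others. The promoter mark of HXT4 in the library labelled sir4∆ falls on its farthest promoter probe, at -1972 bp from the start, whose value was 0.33 there and 0.00037 with Nup170 in wild type.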
